A study of Mus musculus with 12 samples.

Results

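The genes described here encode 4 alcohol dehydrogenases (Adh1, Adh4, Adh5 and Adh7) and 6 aldehyde dehydrogenases (Aldh2, Aldh3a2, Aldh1b1, Aldh7a1, Aldh9a1 and Aldh1l1) of mouse liver. These 10 genes were taken by symbol from the 16821 genes listed for every mouse, which the files also give by NCBI gene ID (such as 11522 for Adh1, 11532 for Adh5, 11669 for Aldh2 and 11671 for Aldh3a2). They were picked with the liver values of these same mice already known. Their differences between the groups are therefore given as a description. The fit across all genes includes them, and the number of them it called is printed beside that of all genes, but it is no independent test of genes picked in this way. Liver RNA was sequenced from 12 adult male C57BL/6J mice, with 1 library per mouse. The control group (Con) held 6 sedentary mice, and the exercise group (Exe) held 6 mice that had run on a treadmill for 6 weeks. No deletion, transgene or drug is named for either group. Levels are in FPKM (mapped fragments of a gene per kilobase of its transcript and per total of mapped fragments), a measure set per length, so that levels of different genes can be compared.

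Alcohol dehydrogenases oxidise alcohols to aldehydes, and aldehyde dehydrogenases oxidise aldehydes to acids, so that the toxic aldehyde does not accumulate. The liver carries out most of the body's ethanol clearance by this pair of steps, first in the cytosol and then in the mitochondria. The same families also handle retinol, formaldehyde, fatty aldehydes, and aldehydes from lysine and choline breakdown.

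Summed over all genes, a library held 735200 to 820107 FPKM. Its relative depth was estimated at 0.984 to 1.02 from 23 low genes whose values step by whole reads. These genes were kept only where all mice fitted nearly the same step. An estimate near 1 was thus favoured in advance, and equal depth is not shown by it. The depth in reads is unknown. Hepatocyte markers (7 of 7 genes found, with Alb the most abundant) had sums of 61810 to 80220 FPKM in Con and 72120 to 89300 FPKM in Exe mice. Con 6 had a Krt19 level of 18.1 FPKM and a Tff2 level of 7.88 FPKM, and Exe 4 had a Krt19 level of 5.5 FPKM. These are genes of bile duct and stomach epithelium. Exe 5 held the most RNA of pancreatic acinar genes, with a sum of 28.9 FPKM. No library was left out unless stated.

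The 10 genes took between 0.377% and 0.574% of all FPKM of a mouse. Adh1 was the most abundant, with 1447 ± 274 FPKM (SD over the 12 mice). It was followed by Aldh2 with 785 ± 65.3 FPKM and by Aldh1l1 with 529 ± 63.7 FPKM. Each of these 3 genes was above the next in all 12 mice. Further down, Adh5 stood at 256 ± 14.8 FPKM, Aldh7a1 at 192 ± 9.61 FPKM and Adh4 at 109 ± 14.1 FPKM. Adh4 was above Aldh9a1 (93.4 FPKM, SD 8.0) in 8 of 12 mice, so their order was not the same in every liver. Aldh9a1 was above Aldh3a2 (70.7 ± 16.1 FPKM) in 11 mice, and Aldh3a2 was above Aldh1b1 (44.6 ± 7.19 FPKM) in 9. The ranges of these neighbours overlapped. Adh7 was the lowest, at 1.06 ± 0.216 FPKM. On the plot of both families, Aldh1a1, a retinaldehyde dehydrogenase that is not one of the 10 genes, lay between Aldh2 and Aldh1l1 with a mean of 552 FPKM.

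**Figure D1:**
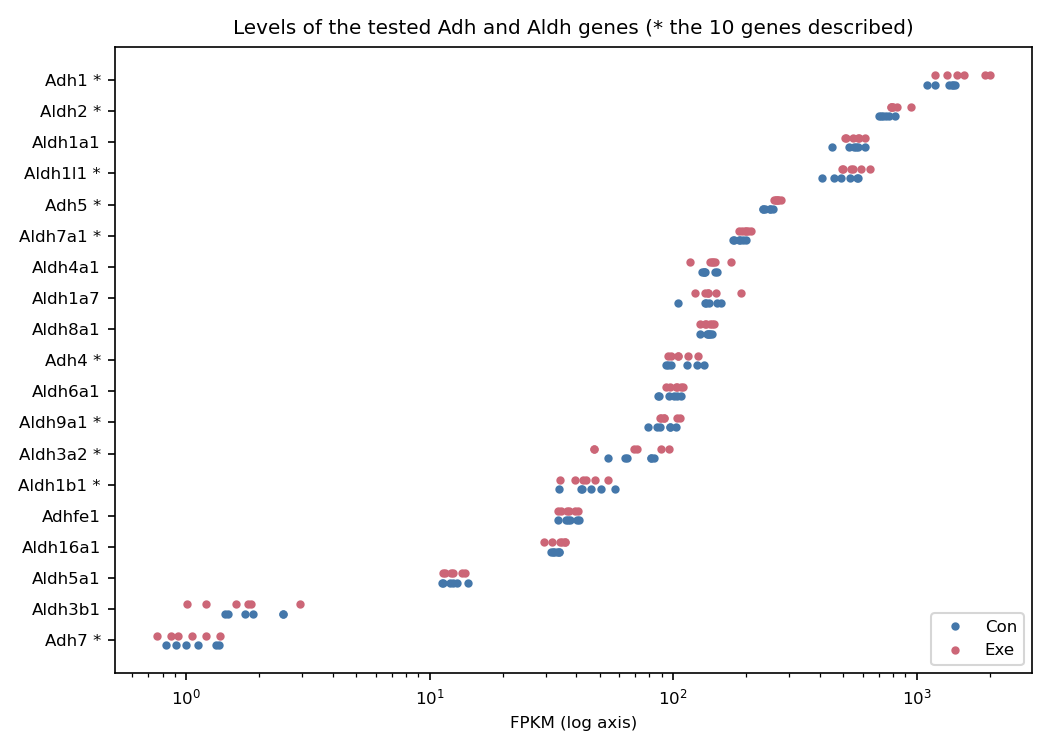
FPKM on a log axis (x) of the 19 Adh and Aldh genes with at least 1 FPKM in at least 6 mice (y, ordered by mean), with 1 point per mouse, blue for Con and red for Exe. Adh1 lies at the top and Adh7, near 1 FPKM, at the bottom.

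Of the alcohol dehydrogenases, Adh1, Adh4, Adh5 and Adh7 lie side by side in the genome. In the RefSeq gene table of GRCm38.p6, the cluster runs in the order Adh7, Adh1, Adh6a, Adh6b, Adh4, Adh5, with no other protein-coding gene among these 6. The neighbours differed widely in level. Adh6a and Adh6b, which lie between Adh1 and Adh4, had means of 0.0567 and 0.0425 FPKM. Adh1 alone made up between 73.6% and 82.8% of the summed FPKM of the Adh genes, a sum that also holds Adhfe1, which is not in this cluster.

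The bases just before the transcription starts of the cluster's 3 abundant genes are shown because these adjacent genes stood at 3 different levels. That of Aldh3a2 is shown because this aldehyde dehydrogenase moved with Adh1 between mice. The sequences are from RefSeq on GRCm38.p6, each being the last 100 bases before an annotated start, 5′ to 3′ on the strand of the gene. Capitals mark each CG, the dinucleotide at which DNA is methylated. Adh5 has 2 annotated starts, and the files do not separate them.
Adh1 (chr3:138277485-138277584, + strand): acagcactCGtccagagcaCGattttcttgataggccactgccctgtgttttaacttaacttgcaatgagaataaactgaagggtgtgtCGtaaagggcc
Adh4 (chr3:138415397-138415496, + strand): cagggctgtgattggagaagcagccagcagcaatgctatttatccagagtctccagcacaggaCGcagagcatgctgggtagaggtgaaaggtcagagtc
Adh5, start 1 (chr3:138437100-138437199, + strand): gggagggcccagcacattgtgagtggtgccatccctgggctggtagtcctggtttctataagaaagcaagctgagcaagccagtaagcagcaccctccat
Adh5, start 2 (chr3:138442993-138443092, + strand): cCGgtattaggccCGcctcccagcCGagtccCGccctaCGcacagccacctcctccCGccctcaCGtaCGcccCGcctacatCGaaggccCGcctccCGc
Aldh3a2 (chr11:61267187-61267286, - strand): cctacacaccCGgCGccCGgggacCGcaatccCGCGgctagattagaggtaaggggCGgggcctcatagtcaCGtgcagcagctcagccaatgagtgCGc

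The 250 bases before a start were read for 8 of the 10 genes, 9 starts in all. Aldh2 had no entry, and Aldh7a1, on chromosome 18, was left out of this reading. Among these 9 starts, the number of CG was highest at start 2 of Adh5, with 21, and at Aldh3a2, with 18. Adh1 had 5, Adh4 had 1, Adh7 had 1, and start 1 of Adh5 had 2. The median of all RefSeq promoters was 6. The letters TTGCAA, searched on both strands, were found once before Adh1 and in 5.34% of all promoters. AGGTCA, also searched on both strands, occurred 2 times before Adh4 and 1 time before Aldh1l1, and 14.0% of all promoters hold it. CCAAT, searched on both strands as well, was found before Adh4, Adh7, Aldh3a2, Aldh9a1 and Aldh1l1, and in 33.85% of all promoters. TATAA, searched on the strand of the gene, occurred 2 times before start 1 of Adh5 and in 16.0% of all promoters. These are matches of letters and not measured binding sites.

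Comparing Exe with Con, the question was whether RNA of these enzymes differs after 6 weeks of running. The test was limma on log2(FPKM + 1), over the 10241 genes with at least 1 FPKM in at least 6 mice, with Benjamini-Hochberg adjustment. All 10 genes passed this filter. On this scale, changes of low genes such as Adh7 are understated. At an adjusted p of 0.05, 0 of the 10 genes were called, and so were 0 of all 10241 genes (0%). The study, with DESeq and its own thresholds, did report genes that differ between these groups, Cyp4a10 and Cyp4a14 among them. The limma fit on FPKM is another test and does not repeat that one. At an unadjusted p of 0.05, 636 genes (6.21%) passed, of which Adh5 and Aldh2 are 2, and nothing is read from this count since the genes were picked on this contrast. The log2 fold change was above 0 for 6 of the 10 genes and below 0 for 4, with a median of 0.067. Over all genes tested the median was 0.016, with 57.5% above 0. In liver tissue, fewer cells of a type and less RNA per cell cannot be told apart.

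**Figure D2:**
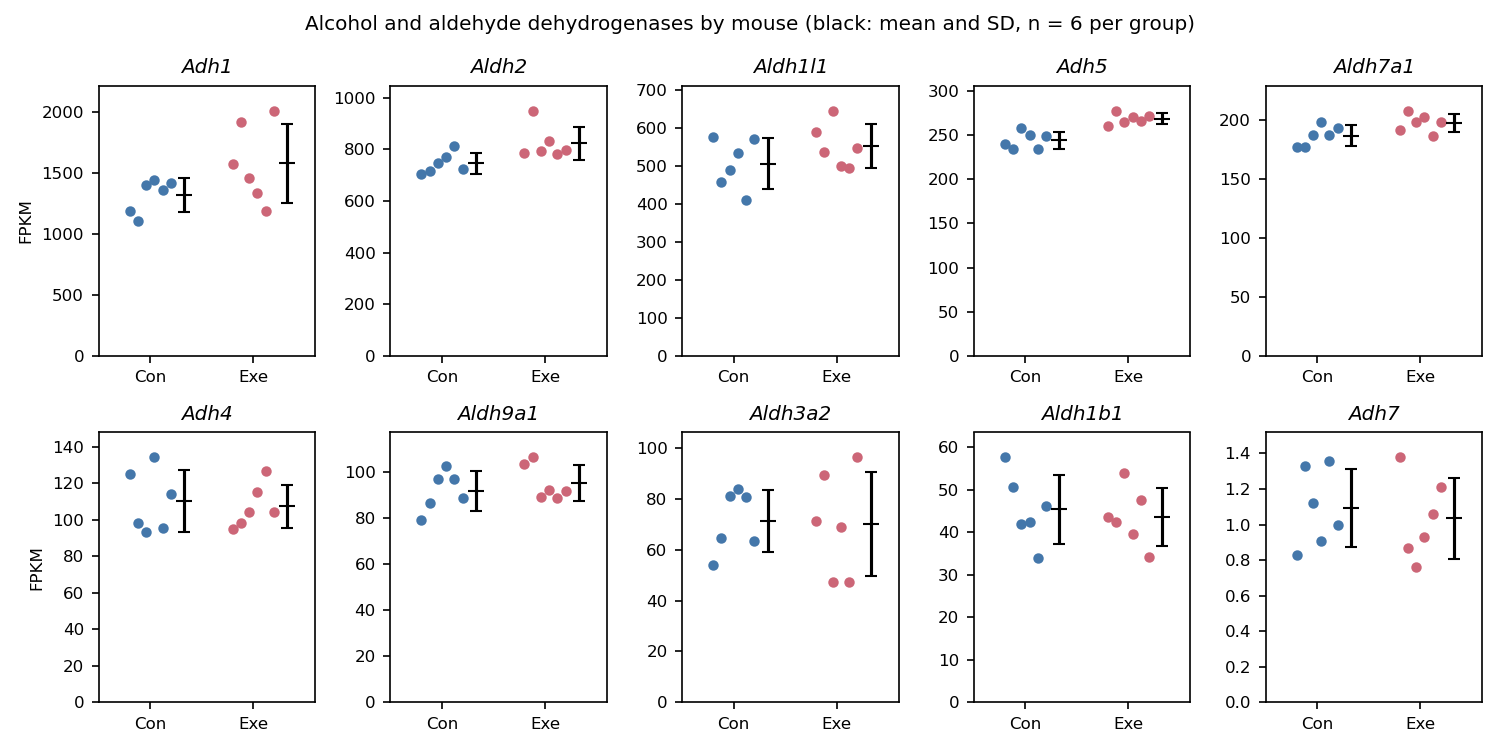
FPKM (y, from 0) of the 10 genes in the 6 Con mice (blue) and 6 Exe mice (red), with 1 panel per gene, 1 point per mouse, and the mean and SD in black. In the Adh5 panel all 6 Exe mice lie above all 6 Con mice, while in the other panels the groups overlap.

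Adh1, the main enzyme of ethanol and retinol oxidation in the liver, had values from 1103 to 1437 FPKM in Con mice (median 1378) and from 1188 to 2009 FPKM in Exe mice (median 1514). Exe 6 (2009 FPKM) and Exe 2 (1912 FPKM) were the highest of all 12 mice, while Exe 5 (1188 FPKM) was among the lowest, so that the groups overlapped. The log2 fold change of Exe over Con was 0.24 with a standard error of 0.13. The SD was 138 FPKM among Con and 324 FPKM among Exe mice.

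Adh5, also known as class III alcohol dehydrogenase, oxidises the glutathione adduct of formaldehyde and reduces S-nitrosoglutathione. The values in Con mice were 239, 234, 257, 249.7, 234 and 249 FPKM. In Exe mice they were 260.1, 278, 264, 271, 265 and 271 FPKM. The lowest Exe mouse was thus just above the highest Con mouse. The group means were 244 ± 9.56 and 268 ± 6.17 FPKM (SD, n = 6), and the log2 fold change was 0.14 with a standard error of 0.045. Such a separation, with every Exe mouse above every Con mouse, was found for 24 of the 10241 genes (0.234%), and Adh5 was the only one of the 10 genes among them. The opposite separation was found for 2 genes (0.0195%), none of them among the 10.

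This separation of Adh5 did not hold under other scalings between mice. With each mouse scaled to the same sum of FPKM, Con mice ran from 230.1 to 268 and Exe mice from 260.4 to 295, and 3 of 6 Exe livers exceeded the highest Con liver. With quantile normalization, 1 of 6 did. None of the 10 genes was then separated, against 28 and 13 of all genes, respectively (0.273% and 0.127%). The log2 fold change of Adh5 remained above 0 in all 26 alternatives, between 0.094 and 0.17. Adh7 and Aldh1l1 also kept their sign in every alternative. The alternatives use the same mice on which the genes were picked, so a constant sign is no further support. Within groups, Adh5 was among the steadiest genes of the liver in the FPKM as deposited, the scaling for which this was ranked. Its SD on the log2 scale was 0.046, and 0.186% of the genes tested had an SD as low or lower, where the median gene had 0.140.

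Adh4, an enzyme with activity on retinol and long-chain alcohols, ran from 93.6 to 134 FPKM in Con mice (median 106) and from 95.0 to 127 FPKM in Exe mice (median 104). Its groups overlapped nearly fully, with a log2 fold change of -0.03 and a standard error of 0.10. Adh7, an alcohol dehydrogenase best known from the stomach and other epithelia, ran from 0.830 to 1.36 FPKM in Con mice and from 0.760 to 1.38 FPKM in Exe mice. The stomach and squamous marker list does not separate its source, since 4 of its 13 genes were listed and none had a mean of 1 FPKM. Con 6, the mouse with the raised Tff2, had 1 FPKM of Adh7, within the range of the other Con mice. The log2 fold change of Adh7 was -0.04 with a standard error of 0.089.

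Aldh2, the mitochondrial enzyme that clears acetaldehyde, had values from 704 to 815 FPKM in Con mice (median 737) and from 782 to 951 FPKM in Exe mice (median 796). Exe 2 (951 FPKM) stood above the next Exe mouse (831 FPKM), and the lowest 4 Exe mice overlapped with Con 5 (815 FPKM). The log2 fold change was 0.14 with a standard error of 0.063. Adh1 exceeded Aldh2 in every mouse, by 1.52 to 2.52 times.

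Aldh1b1, a mitochondrial relative of Aldh2, ran from 34.0 to 57.7 FPKM in Con mice (median 44.2) and from 34.2 to 54.0 FPKM in Exe mice (median 43.1). Its ranges coincided almost entirely, and the log2 fold change was -0.05 with a standard error of 0.12. Aldh1l1, the cytosolic enzyme that oxidises formyl-tetrahydrofolate, ran from 409 to 576 FPKM in Con mice (median 511) and from 494 to 646 FPKM in Exe mice (median 541). Its log2 fold change was 0.13 with a standard error of 0.094.

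Aldh3a2, the fatty aldehyde dehydrogenase of the endoplasmic reticulum and peroxisome, varied most within groups. Con mice had 54.0, 64.6, 81.1, 83.8, 80.8 and 63.4 FPKM. Exe mice had 71.2, 89.3, 47.2, 68.9, 47.4 and 96.3 FPKM. Both the lowest values (Exe 3 and Exe 5) and the highest values (Exe 6 and Exe 2) came from Exe mice. Between the groups it had a log2 fold change of -0.06 with a standard error of 0.18. Its SD within groups on the log2 scale was 0.354, and 94.3% of the genes tested had an SD as low or lower.

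Aldh7a1, which acts on the semialdehyde of lysine breakdown, ran from 177 to 199 FPKM in Con mice and from 186 to 208 FPKM in Exe mice, with a log2 fold change of 0.08 and a standard error of 0.049. Like Adh5 it was steady, with an SD within groups of 0.062 on the log2 scale. Aldh9a1, which oxidises the aldehyde precursors of carnitine and of GABA, ran from 78.9 to 102 FPKM in Con mice and from 88.4 to 106 FPKM in Exe mice. Its log2 fold change was 0.05 with a standard error of 0.072. Both pairs of ranges overlapped.

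Companion genes of the same pathways were read from the same fit. Of 68 genes listed, 67 were in the files and 52 were tested. Of these, 36 had a log2 fold change above 0, where 57.5% of all genes tested did, and 0 of 52 passed an adjusted p of 0.05 from limma. Before adjustment, 6 of them passed 0.05, among them Acss2, Akr1c20, Cbr1, Shmt1 and Hacl1, where 6.21% of all genes did. The counts above 0 given below by pathway stand beside the same share of 57.5%, and nothing is read from them.

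Among the genes of ethanol and acetate, Cyp2e1, the microsomal ethanol oxidase, had the highest level of all companions with 4022 ± 485 FPKM (Con) and 4125 ± 535 FPKM (Exe), a log2 difference of 0.03. Catalase (Cat) had a log2 fold change of -0.05. Acss2, which turns acetate into acetyl-CoA in the cytosol, had 82.7 ± 15.4 FPKM in the Con group and 101 ± 15.3 FPKM in the Exe group, with a log2 fold change of 0.29 (SE 0.12, adjusted p = 0.793 from limma). Acss3 had a log2 fold change of 0.05.

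Hacl1, a peroxisomal lyase of fatty acid alpha-oxidation whose aldehyde product Aldh3a2 can oxidise, had the largest log2 fold change of the companions, 0.45 (SE 0.14, adjusted p = 0.789 from limma). Its mean was 82.5 ± 17.9 FPKM in the Con group and 112 ± 15.2 FPKM in the Exe group. Phyh, the enzyme before it, had a log2 fold change of 0.06. Aldh3a2 itself was at -0.06.

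Of the 15 tested aldo-keto and carbonyl reductases, which reduce aldehydes and ketones, 9 had log2 fold changes above 0. Cbr1 was at 0.25 (SE 0.092) and Akr1c20 at 0.22 (SE 0.073), both with an adjusted p of 0.793 from limma. The abundant Akr1c6 and Akr1a1 were at -0.03 and -0.05. Of the aldehyde oxidases, Aox1 and Aox3 were at -0.17 and -0.14, while xanthine dehydrogenase (Xdh) was at 0.11.

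Of 10 tested genes of folate and formaldehyde metabolism, 6 were above 0. Shmt1, the cytosolic serine hydroxymethyltransferase, was at 0.24 (SE 0.11, adjusted p = 0.799 from limma). Gnmt and Ftcd were at 0.09 and 0.01. Of the 7 genes of lysine and carnitine, 6 were above 0, with Dhtkd1 at 0.16, Gcdh at 0.11, Pipox at 0.01 and Aadat at -0.13.

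Of the other Aldh genes, 8 of 15 were tested and 7 of them were above 0, from -0.12 for Aldh3b1 to 0.09 for Aldh1a7. Aldh1a1 was at 0.02 and Aldh4a1, which acts in proline breakdown, at 0.05. Adhfe1 and Sord, which act on hydroxybutyrate and sorbitol, were at -0.02 and 0.10.

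**Figure D3:**
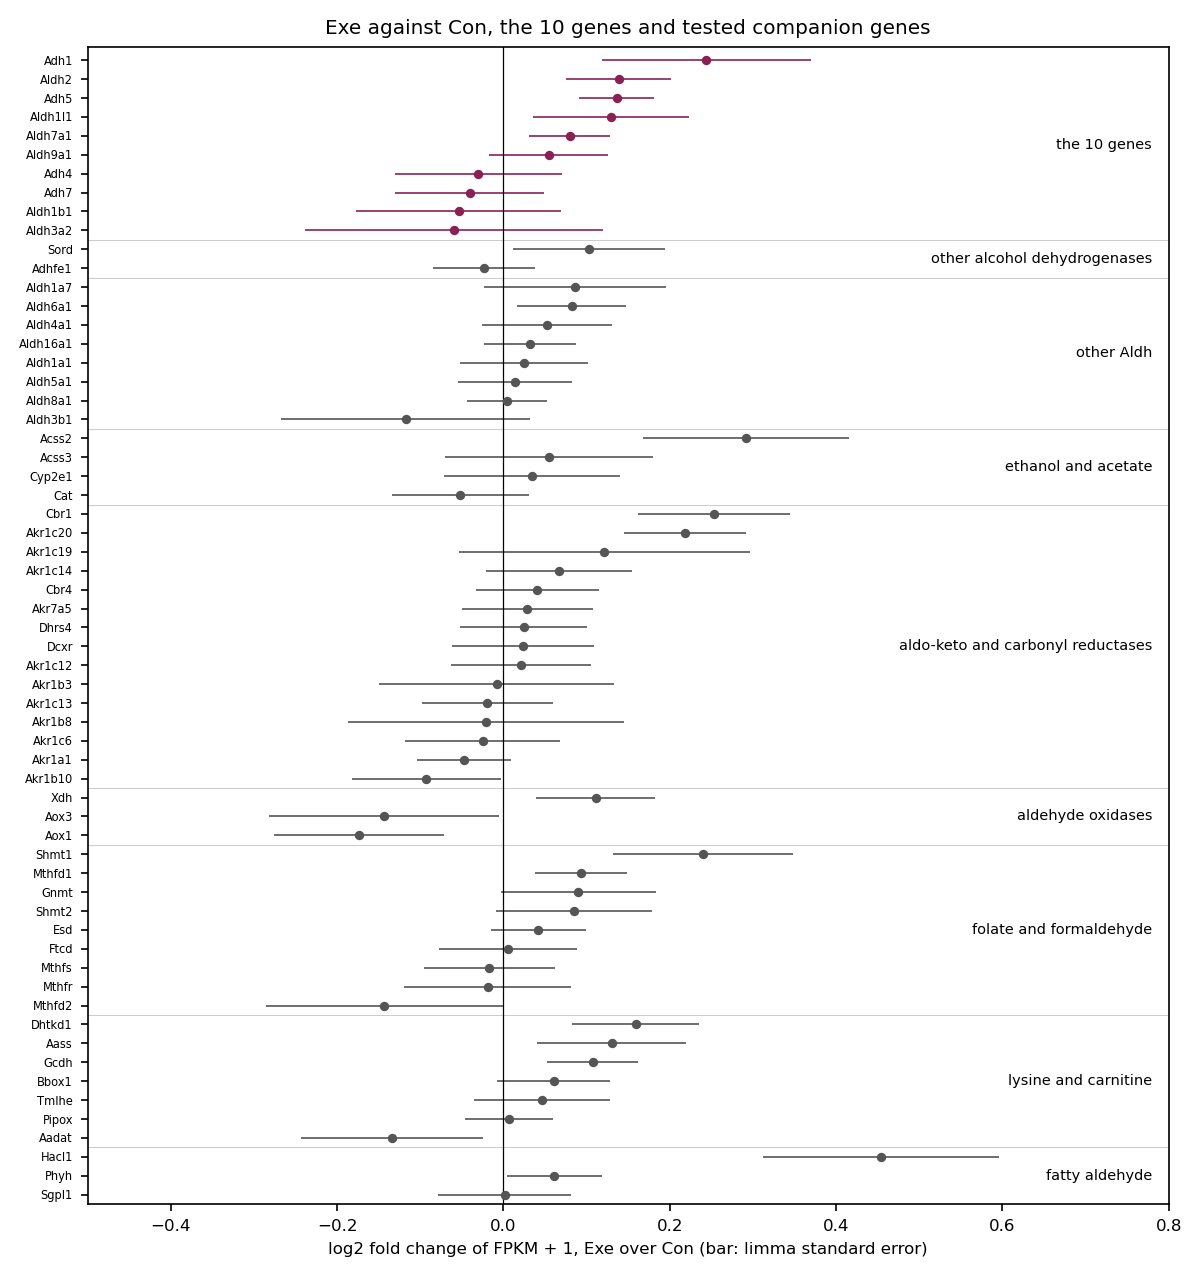
Log2 fold change of FPKM + 1 in Exe over Con (x) for the 10 genes (purple) and 51 tested companion genes (grey), grouped by pathway (y). Points are limma estimates and bars are their standard errors, and none passed an adjusted p of 0.05.

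Between mice of the same group, several of the 10 genes moved together. The measure was Pearson's r of the deviations of log2(FPKM + 1) from the group mean over 12 mice. It is a description, since the values of a mouse share 1 library. Of the 45 pairs, the closest were Adh1 with Aldh3a2 (r = 0.80), Aldh3a2 with Aldh9a1 (r = 0.70) and Aldh2 with Aldh9a1 (r = 0.70). The most opposed pair was Aldh3a2 with Aldh1b1, with r = -0.81. This r was -0.86 within Con mice and -0.86 within Exe mice, and leaving out single mice it lay between -0.87 and -0.75. Only 1 of 12 mice had both genes on the same side of its group mean.

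**Figure D4:**
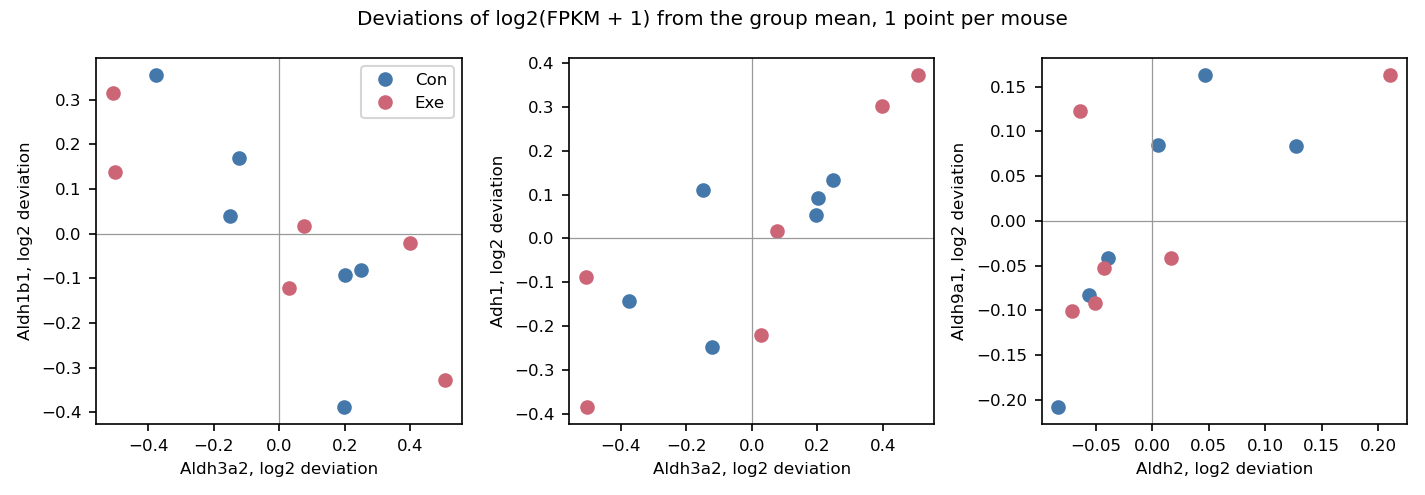
Deviation of log2(FPKM + 1) from the group mean for 3 pairs of genes, with 1 point per mouse (blue Con, red Exe). Aldh1b1 is low where Aldh3a2 is high (r = -0.81), while Adh1 is high with Aldh3a2 (r = 0.80) and Aldh9a1 with Aldh2 (r = 0.70).

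Among the 10240 other genes tested, those most like each gene over the 12 mice were found by the same measure. For Adh1 they were Sar1b (r = 0.92), Kxd1 (r = 0.92) and Wdr59 (r = 0.92). For Aldh3a2 they were Ppp1r15b, Rad1 and Lrrc58 (r = 0.95 each). Those of Aldh2 were Klhl2 (r = 0.95), Cavin2 (r = 0.95) and Timp3 (r = 0.93), and those of Adh5 were Vps8, Cab39l and Slc44a1 (r = 0.92, 0.92 and 0.88). Adh4 was most like Psme1, Snapc3 and Irf3 (r = 0.88, 0.87 and 0.86), and Aldh1l1 most like Ift52, Psmf1 and Zfp760 (r = 0.90, 0.90 and 0.87). They were picked as the highest r, and nothing on shared function follows from them.

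The livers also differed in acute-phase genes, which hepatocytes express in inflammation. The 16 genes of this list (such as Saa1, Orm1 and Hp) ranged in sum from 14980 to 55630 FPKM in the Con group and from 15100 to 58480 FPKM in the Exe group. Con 1 and Exe 5 were the highest. To ask which genes move with them inside groups, the mean log2(FPKM + 1) of the list was fitted as a score beside the group. The slope is the log2 change per SD of the score within groups. Of 10225 genes outside the list, 74 (0.724%) were called at an adjusted p of 0.05 from limma, and 0 of the 10 genes were among them. The count of 74 was 10 without Con 1 and 114 without Con 4.

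Aldh3a2 had the steepest slope of the 10 genes, -0.25 (SE 0.072, adjusted p = 0.102 from limma), and was at -0.19 in Con mice and -0.34 in Exe mice. Aldh1b1 had the opposite sign, 0.16 (SE 0.052, adjusted p = 0.132). Aldh9a1 was at -0.09 (SE 0.031, adjusted p = 0.147), Aldh2 at -0.07 (SE 0.027, adjusted p = 0.236) and Adh1 at -0.12 (SE 0.060, adjusted p = 0.329). Before adjustment, 4 of these genes passed 0.05, where 16.6% of all genes did. Adh5 was near 0, with a slope of -0.01.

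**Figure D5:**
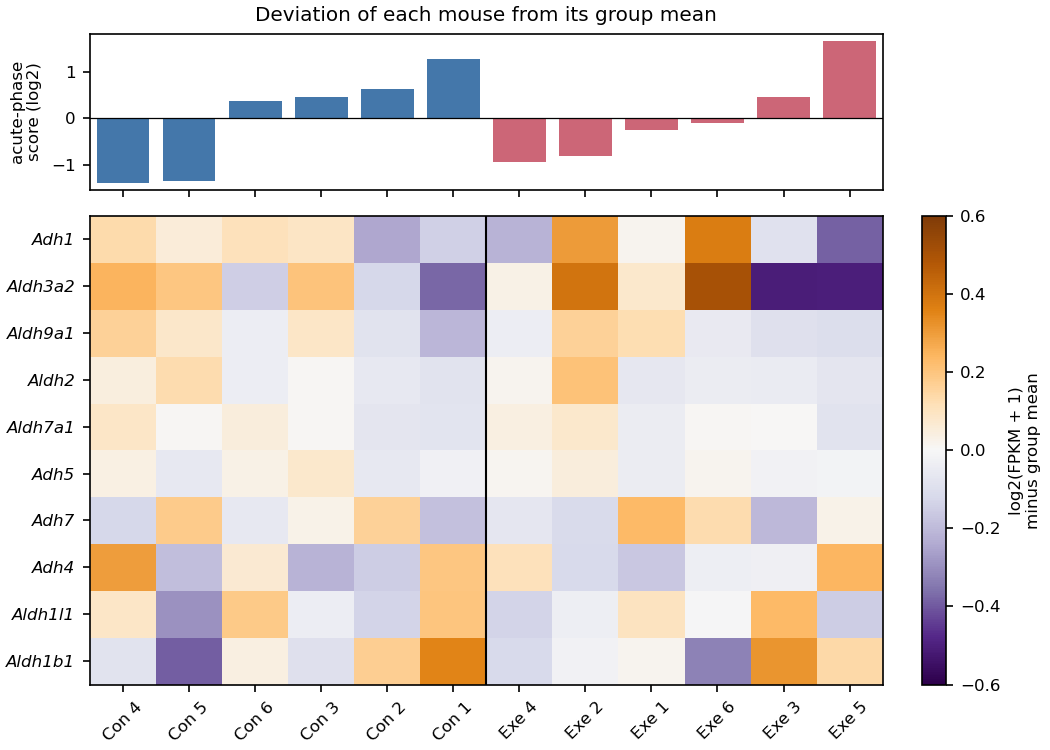
Top, acute-phase score of each mouse minus its group mean (log2, bars from 0, blue Con and red Exe). Bottom, log2(FPKM + 1) of the 10 genes minus the group mean (colour), with the mice of each group placed by that score. Aldh3a2 is low and Aldh1b1 high in Con 1 and Exe 5, the mice with the highest scores, and Adh5 stays near its group mean. In Exe 3, whose score is lower than that of Exe 5, Aldh3a2 is as low and Aldh1b1 is higher.

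Sums of cell type markers also differed between mice, and their relation to the acute-phase score was not computed. Kupffer cell markers (5 of 5 genes found) ranged in sum from 126 to 235 FPKM in the Con group and from 87.4 to 221 FPKM in the Exe group, with Con 2 and Exe 5 the highest. The bile duct list ran from 27.2 to 75.0 FPKM in Con mice and from 25.4 to 76.7 FPKM in Exe mice, most of it Spp1. Their part in the slopes was not tested.

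A second score took Cyp4a10 and Cyp4a14, fatty acid hydroxylases that the study named. Their sum was 39.9 to 156 FPKM in the Con group and 136 to 634 FPKM in the Exe group, so that this score also differed between the groups. Within groups it tended to run against the acute-phase score, though not in every mouse. In SD from the group mean, Con 1 had -1.68 on the Cyp4a and 1.23 on the acute-phase score. Exe 5 had -1.10 and 1.61, while Con 3 had 0.24 and 0.44. Slopes on both scores are therefore not separate findings. Within groups, 3 of 10239 genes (0.0293%) were called with it and 0 of the 10 genes, and the 3 became 0 without Con 1 and 12 without Con 2. Aldh3a2 had a slope of 0.27 (SE 0.068, adjusted p = 0.142 from limma), Aldh2 of 0.08 (SE 0.025, adjusted p = 0.180), Adh1 of 0.15 (SE 0.057, adjusted p = 0.264) and Aldh1b1 of -0.15 (SE 0.054, adjusted p = 0.236). Before adjustment 5 of the 10 genes passed 0.05, where 14.2% of all genes did. With this score added to the comparison of the groups, the log2 fold change of Exe over Con was -0.05 for Adh1, -0.03 for Aldh2, -0.59 for Aldh3a2 and 0.11 for Adh5. In this fit 0 of the 10 genes and 0 of all 10241 genes were called at an adjusted p of 0.05 from limma. Since the score differed between the groups, its part and that of the group cannot be fully told apart.

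Scores of 12 pericentral and 12 periportal genes, which mark the ends of the liver lobule, were fitted in the same way. With each of them 0 genes were called (0% of 10229), and 0 of the 10 genes. Before adjustment, 3 of the 10 genes passed 0.05 with the pericentral score (9.7% of all genes) and 1 with the periportal score (5.67%).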

How the data were processed

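Reads were filtered for quality and aligned with HISAT by the authors, who deposited FPKM to 2 decimals. Per the labels, the builds named are GRCm39 and mm10, and Bowtie2 is named with no role. The tool, annotation and any scaling between mice behind the FPKM are not given in the sources used here. The authors used DESeq, which needs counts, so limma was used here. The members, gene lists and tests were chosen with earlier results of these data known.

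Values were fitted in R 4.3.3 with limma 3.58.1 as log2(FPKM + 1), with eBayes and a trend, and adjusted by Benjamini-Hochberg over all genes tested. The fit was tested on simulated data. Named were the 10 genes, the 2 companions of each pathway with the highest mean and the 2 with the largest absolute log2 fold change, the 3 genes most like 6 of the 10, genes of the lists, and Adh6a and Adh6b, added after their values were seen. The values of 1 companion are not reported here. In all, 5 comparisons under 26 or 23 settings gave 118 fits (quantile normalization, other filters and pseudocount, robust variance moderation, replicate block, z-value scores, each mouse left out). Added after seeing the data were each of the 4 scores as a covariate, scaling to the same sum, and leaving out Con 1 and Exe 5, or Con 6, Exe 4 and Exe 5. Promoters and gene order came from RefSeq tables of GRCm38.p6, in which all 10 gene IDs matched.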

Additional observations from a re-analysis of the deposited data

Results flagged for a closer look

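In Exe mice, Aldh2 of Exe 2 (951 FPKM) lay apart from the other 5, of which the highest had 831 FPKM. Its gap to them was 0.710 of the range of the group, past the critical value of Dixon's test at 95%. This was 1 of 28 sets of 6 mice tested (10 genes and 4 scores in 2 groups), and chance flags about 1 in 20. Exe 2 also had the highest Cyp4a10 and Cyp4a14 sum, 634 FPKM, and the lowest sum of all FPKM, 735200. Their part in the value was not tested. Without Exe 2 the log2 fold change of Aldh2 was 0.10.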

How the results depend on the processing

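Called genes among the 10 numbered 0 in every comparison and setting. Called companions numbered 0 in every setting of Exe against Con and of the pericentral and periportal scores. With the acute-phase score, 0 as reported, they were 2 with z-value scores, 1 with quantile normalization, 2 without Con 3, 1 without Con 4 and 1 without Exe 4, and with the Cyp4a score, also 0, they were 2 with the replicate block. Of 276 counts under the alternatives, 243 lay within 1.5 times the count reported. Many of the 243 were counts of 0 that stayed at 0, so this share says little on the counts above 0. In Exe against Con, 1 gene was called with no filter, and the 636 genes before adjustment became 1031 without Con 6, Exe 4 and Exe 5, and between 418 (without Exe 2) and 905 (without Exe 5) with each mouse left out. The 74 genes called with the acute-phase score became 19 with no filter, 4 without Con 1 and Exe 5, 10 without Con 6, Exe 4 and Exe 5, and between 10 (without Con 1) and 114 (without Con 4) with each mouse left out. The 3 genes of the Cyp4a score became 1 with quantile normalization, with no filter and with a filter at 5 FPKM, 5 with equal sums, 0 without Con 1 and Exe 5, 0 without Con 6, Exe 4 and Exe 5, and between 0 and 12 (without Con 2). With the pericentral score 1 gene was called at a pseudocount of 0.1, and between 0 and 1 with each mouse left out. With the periportal score it was between 0 and 113 (without Exe 3). The causes were not tested.

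Whether the replicate numbers of the labels pair the mice is not stated. Over the deviations of all genes tested, r between same-numbered mice lay between -0.48 and 0.16. Such an r cannot tell whether mice were housed or handled in pairs. With the replicate number as a block, 0 genes were called in Exe against Con, 51 with the acute-phase score, 0 with the pericentral score, 2 with the periportal score and 113 with the Cyp4a score.

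The log2 fold changes of the 10 genes took the other sign in 16 of 258 values, and their slopes on the pericentral and periportal scores in 19 and 23 of 218. Among companions named, the sign turned as follows. With the Cyp4a score as a covariate, Sord was at -0.16, Adhfe1 at 0.030, Aldh4a1 at -0.14, Aldh3b1 at 0.19, Cyp2e1 at -0.28, Acss3 at -0.086, Cbr1 at -0.0087, Xdh at -0.020, Gnmt at -0.011, Ftcd at -0.15 and Pipox at -0.067. With the acute-phase score as a covariate Cyp2e1 was at -0.027, Ftcd at -0.019 and Pipox at -0.012, and with the pericentral score at -0.017, -0.032 and -0.0026. Cyp2e1 is itself a gene of the pericentral score, so that fit partly adjusts Cyp2e1 for itself. With quantile normalization Aldh1a1 was at -0.038, Ftcd at -0.050 and Pipox at -0.065. With equal sums Adhfe1 was at 0.014 and Akr1c6 at 0.013. Adhfe1 was at 0.02709 without Con 1 and Exe 5 and at 0.02707 without Con 6, Exe 4 and Exe 5. With each mouse left out, the ranges were -0.054 to 0.0027 for Adhfe1, -0.030 to 0.060 for Aldh1a1, -0.014 to 0.10 for Cyp2e1, -0.028 to 0.11 for Acss3, -0.070 to 0.024 for Akr1c6, -0.045 to 0.069 for Ftcd and -0.012 to 0.029 for Pipox. None of these was called. The slope on the acute-phase score turned for Adh4 (0.034) to -0.066 without Con 1 and Exe 5 and to -0.0070 without Con 6, Exe 4 and Exe 5 (-0.017 to 0.097 with each mouse left out), for Adh5 to 0.00061 with quantile normalization, and for Adh7 (-0.017) to 0.0089 without Con 1 and Exe 5 (-0.044 to 0.013). The Cyp4a slope of Adh7 (0.025) turned to -0.014 without Con 1 and Exe 5 (-0.016 to 0.072).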
